A study of Mus musculus with 16 samples.

Results

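The colony-stimulating factors (CSFs) and their receptors comprised 8 genes of the 47069 in the count table: the ligand genes Csf1, Csf2 and Csf3 and the receptor genes Csf1r, Csf2ra, Csf2rb, Csf2rb2 and Csf3r. They were taken by symbol, and each symbol matched 1 row. The effect of gamma-secretase inhibition was measured by RNA-seq in macrophages grown from the marrow (BMMs) of C57BL/6 mice that were 8 to 10 weeks old. Marrow cells were grown for 7 days in 20% L929-conditioned medium and 5% horse serum, primed with 10 ng/mL IFNγ overnight, and activated for 1 hr with 100 ng/mL Salmonella LPS and immune complexes of ovalbumin and rabbit IgG (LPS/ICs). The GSI group had received 25 μM DAPT, an inhibitor of gamma-secretase (GSI), and the control group the vehicle DMSO at 0.01%. By the paper's methods both were given overnight before activation, whereas some of its figure legends name a shorter time. Every library was from activated cells, so differences present before activation cannot be told apart from later ones. There were 2 libraries per group, so that an SD rests on 1 difference. The labels do not say whether replicates were separate cultures or animals, and the p-values measure only the spread between these libraries.

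CSF1 (M-CSF) binds CSF1R, a receptor tyrosine kinase that keeps macrophages alive and marks their lineage. L929 fibroblasts secrete CSF1, which is why their medium is used to grow BMMs, so every library came from cells raised on added CSF1. CSF2 (GM-CSF) binds an alpha chain, CSF2RA, which pairs with the common beta chain CSF2RB to signal through JAK2 and STAT5, and the mouse carries a second beta chain gene, Csf2rb2, whose product serves IL-3. CSF3 (G-CSF) binds CSF3R, best known on neutrophils and their precursors. CSF1R is shed from the cell surface by ADAM17, and the stub left in the membrane is cleaved by gamma-secretase, the enzyme that DAPT inhibits.

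The 4 libraries held 42694655 to 56932059 counts, so that the limit a count of 0 allows, 3 counts per library, lay between 0.0527 and 0.0703 CPM (counts scaled to the library's total count). The other CPM values are further scaled by TMM factors of 0.997 to 1.01. Such limits cover counting error only. The labelled cell type was checked against markers. All 10 macrophage markers passed the filter on low counts, with summed levels of 17126 and 17247 CPM with DMSO and 14666 and 15337 CPM with GSI, and 6 were lower and 2 higher with GSI at an FDR (Benjamini-Hochberg adjusted p over all genes tested) under 0.05, against 21.9% lower and 19.0% higher of all genes tested. Markers of neutrophils and their precursors summed to 0.999 to 1.69 CPM and of B cells to 0.344 to 0.538 CPM, overlapping between the groups. Those of T and NK cells summed to 1.21 and 1.04 CPM with DMSO, against 2.77 and 2.17 CPM with GSI, where Lck was the only one tested and rose (log2 fold change 1.14, FDR = 0.000147, edgeR). Those of fibroblasts summed to 1.09 and 1.06 CPM with DMSO, against 0.476 and 0.810 CPM with GSI, where Cxcl12 was the only one tested and fell (-0.84, FDR = 0.0257, edgeR). All 7 mast cell and basophil markers had 0 counts in every library. Dendritic cell markers summed to 186 and 179 CPM with DMSO and 113 and 115 CPM with GSI, nearly all of it Clec9a, at 177 and 110 CPM. In bulk RNA, fewer cells of a type and less RNA per cell cannot be told apart.

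Per length of their exons, the receptor chains were the most abundant of the family with DMSO. On the RPKM scale (CPM per kilobase of exons), Csf1r stood at 397 ± 24.4 (SD, n = 2) and Csf2rb2 at 127 ± 9.75 (SD, n = 2). Csf2ra at 67.5 ± 10.4 RPKM and Csf2rb at 64.4 ± 3.59 RPKM (SD, n = 2 each) overlapped and could not be ordered. Csf3r followed at 17.1 ± 0.342 RPKM, then the ligands Csf1 at 7.00 ± 0.367 RPKM, Csf2 at 4.67 ± 0.960 RPKM and Csf3 at 0.157 ± 0.0105 RPKM (SD, n = 2 each). All other neighbours in this order were separated in both libraries. With the longest transcript in place of all exons as the length, a choice made after the data were seen, Csf2rb stood at 95.6 and Csf2ra at 85.1 RPKM, while Csf1r remained first at 487 RPKM. By CPM, Csf1r was the 39th and 33rd most abundant of the 13211 genes tested in the DMSO libraries and the 84th and 64th in the GSI libraries.

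**Figure D1:**
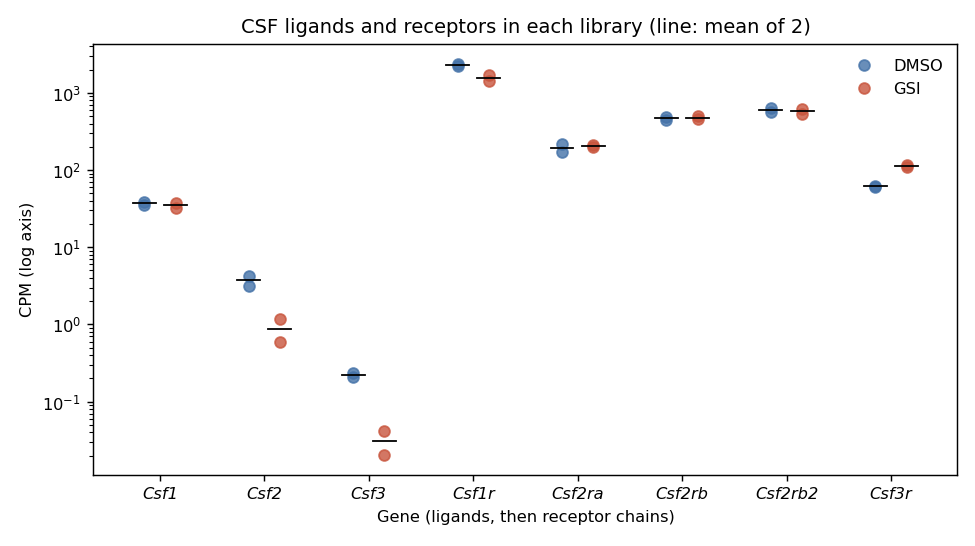
CPM of the 8 genes in each library on a log axis, with DMSO in blue, GSI in red and a line at the mean of the 2 libraries. The DMSO and GSI points are apart for Csf2, Csf3, Csf1r and Csf3r and overlap for Csf1, Csf2ra, Csf2rb and Csf2rb2.

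To determine how GSI affected the family, the groups were compared with edgeR's quasi-likelihood test. Csf2, Csf3 and Csf1r were lower with GSI, Csf3r was higher, and Csf1, Csf2ra, Csf2rb and Csf2rb2 did not pass the FDR threshold of 0.05. The libraries of the groups did not overlap for 4 of the 8 genes, against 70.6% of all genes tested. Thus 3 of 8 were called lower, against 21.9% of all genes, and 1 of 8 higher, against 19.0%. Csf2 and Csf3 also passed the second threshold, an absolute log2 fold change above 1.5, which 2.91% of all genes passed. Csf3 entered the test only through its DMSO libraries, so that it had to differ, and its part in these counts carries no weight. Numbers this small do not set the family apart from other genes, and the results concern its single members.

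**Figure D2:**
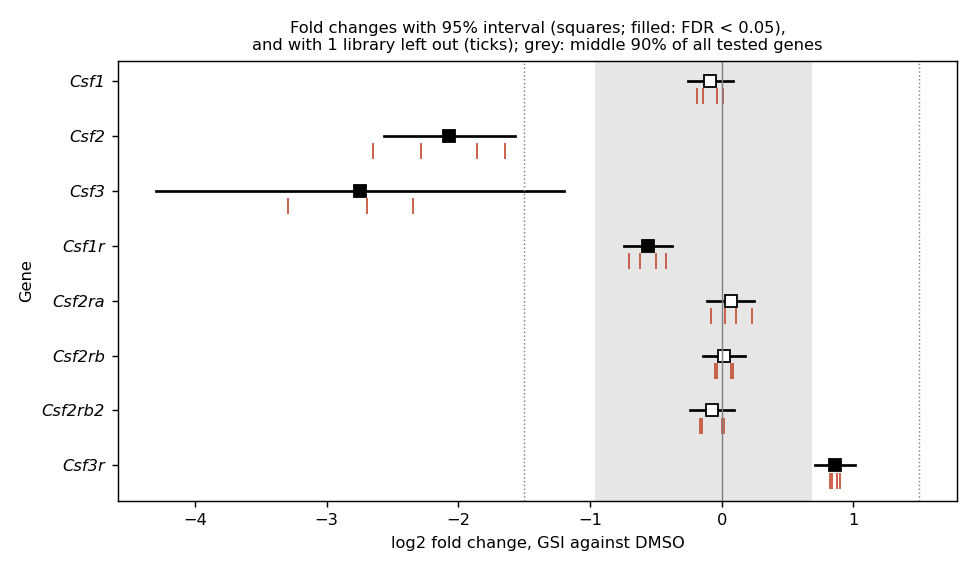
Log2 fold change of GSI against DMSO for each gene (squares, filled where the FDR was under 0.05) with its 95% interval, and the values after leaving out 1 library in turn (red ticks). Grey marks the middle 90% of all genes tested and dotted lines a change of 1.5. Csf2 at -2.07 and Csf3 at -2.75 lie far to the left and Csf3r at 0.86 lies just outside the grey band, whereas the ticks of Csf1, Csf2ra, Csf2rb and Csf2rb2 fall on either side of 0.

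Among the ligands, Csf2 fell to 0.239 of its level with DMSO. Csf2, which encodes GM-CSF, lies on chromosome 11 of GRCm38 from 54247271 to 54249667 on the minus strand (ENSMUSG00000018916). The DMSO libraries held 184 and 181 counts of it, or 4.28 and 3.19 CPM, whereas 57 and 29 counts, or 1.18 and 0.587 CPM, were found in the GSI libraries. Every DMSO library was above every GSI library. Relative to their mean, the GSI libraries (0.883 ± 0.419 CPM, SD, n = 2) differed more from each other than the DMSO libraries did (3.73 ± 0.768 CPM, SD, n = 2). The log2 fold change was -2.07 (SE 0.238, 95% interval -2.56 to -1.57, FDR = 6.81e-07 by the edgeR quasi-likelihood test). The exons of Csf2 share 96 bases with Gm12223 on the other strand, which had at most 1 count in any library.

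Csf3, which encodes G-CSF, lies on the same chromosome from 98701263 to 98703629 on the plus strand and was close to the detection limit. The DMSO libraries held 10 and 12 counts, whereas 2 and 1 were left in the GSI libraries. Summed over each group, 22 counts stood against 3, a GSI to DMSO ratio of 0.139 with an exact 95% counting interval of 0.0266 to 0.461. The fitted log2 fold change was -2.75 (SE 0.742, FDR = 0.00559 by the same edgeR test), given as a description because the gene was tested only through its DMSO libraries. Without GSI replicate 2 the FDR was 0.0720, and without DMSO replicate 2 Csf3 was not tested.

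Csf1, the third ligand gene (chromosome 3, from 107741048 to 107760469, minus strand), showed no difference that the test could detect. It stood at 38.3 and 35.6 CPM with DMSO and at 37.1 and 32.5 CPM with GSI, and the groups overlapped. The log2 fold change was -0.09 (SE 0.0821, FDR = 0.420, edgeR), and its 95% interval of -0.26 to 0.08 leaves room for a decrease of up to 0.259 on the log2 scale.

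The upstream regions of Csf2, which fell, and of Csf1, which did not pass the test, are shown because inflammatory transcription factors are known to act on the promoters of Csf1 and Csf2. They are the 250 bases before the RefSeq gene start on GRCm38.p6, 5′ to 3′ on the minus strand, with capitals at matches to an NF-κB consensus. RefSeq regions were searched for 5 of the 8 genes, namely Csf1, Csf2, Csf2ra, Csf2rb2 and Csf3r. Csf1r was left out of the search whether or not RefSeq held a sequence for it, so nothing is said of its promoter. The Csf1 region is chr3:107760470-107760719 and its start is also that of GENCODE. The Csf2 region is chr11:54249900-54250149, and the RefSeq start lies 232 bases upstream of the GENCODE start, so that the window does not hold the bases next to the latter.
Csf1: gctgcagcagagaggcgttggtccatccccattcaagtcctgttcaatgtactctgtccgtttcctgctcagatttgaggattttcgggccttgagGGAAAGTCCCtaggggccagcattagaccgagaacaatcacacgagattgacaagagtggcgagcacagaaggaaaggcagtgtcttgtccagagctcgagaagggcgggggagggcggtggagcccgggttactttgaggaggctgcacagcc
Csf2: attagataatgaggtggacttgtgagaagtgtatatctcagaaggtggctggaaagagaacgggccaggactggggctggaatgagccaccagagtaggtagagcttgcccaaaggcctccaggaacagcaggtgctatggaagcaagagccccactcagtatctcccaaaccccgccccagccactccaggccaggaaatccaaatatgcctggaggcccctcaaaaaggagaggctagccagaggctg
The Csf1 window held 1 match to the NF-κB consensus, on the opposite strand, from 154 to 145 bases before the start, and such a match was present in 3.90% of 32851 promoter windows of this length. The Csf2 window held no match to it, nor to the letters TGGGAA (RBPJ), TGANTCA (AP-1) or GAGGAA (PU.1), searched on both strands, which were found in 21.6%, 6.75% and 23.3% of the windows. The matched letters overlap no other motif searched. In the other regions searched, TGGGAA occurred in Csf2ra, 30 to 25 bases before the RefSeq start, and GAGGAA occurred in Csf2ra, Csf2rb2 and Csf3r. The RefSeq starts of Csf2ra and Csf3r lie 11 and 109 bases downstream of the GENCODE starts. The GAGGAA match of Csf3r, 86 to 81 bases before the RefSeq start, thus lies inside the GENCODE gene. Those of Csf2ra, at 14 to 9 and 8 to 3 bases, lie partly or wholly inside it. A match of letters is a description and not a binding site.

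Of the receptor genes, Csf1r carried by far the most reads and was lower with GSI. Csf1r, the CSF1 receptor (ENSMUSG00000024621), had 2191 and 2391 CPM with DMSO and 1407 and 1706 CPM with GSI. Both GSI libraries lay under both DMSO libraries, with a wider gap between the GSI libraries, 1557 ± 212 CPM (SD, n = 2), than between the DMSO libraries, 2291 ± 141 CPM (SD, n = 2). The log2 fold change was -0.56 (SE 0.0875, 95% interval -0.74 to -0.37, FDR = 3.43e-05, edgeR quasi-likelihood test), a fold of 0.680, well inside the threshold of 1.5. Each of the 4 fits without a library gave a value between -0.70 and -0.42. The exons of Csf1r share 873 bases with Hmgxb3 on the other strand. All counts of Hmgxb3 together came to at most 1.66% of those of Csf1r in any library. How reads over both genes were counted is not given, so these counts do not bound reads assigned to neither gene. Other macrophage surface genes moved in the same libraries. Mrc1, a mannose receptor, had a log2 fold change of -1.29, from 15.7 to 6.40 CPM. Cd14, an LPS co-receptor, had a log2 fold change of -0.64, Itgam of -0.63, Fcgr1 of -0.44 and Adgre1 (F4/80) of -0.28, whereas Mertk at 0.64 and Cd63 at 0.51 were higher, all with an FDR under 0.05. The part of these and of the dendritic cell markers in the Csf1r result was not tested.

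Csf3r was the member that rose. Csf3r, the G-CSF receptor (ENSMUSG00000028859), lies on chromosome 4 from 126024550 to 126044440 on the plus strand and shares no exon bases with another gene. It stood at 60.8 and 62.5 CPM with DMSO and at 109 and 115 CPM with GSI. The libraries of a group were close together and the groups were far apart. The log2 fold change was 0.86 (SE 0.0710, 95% interval 0.71 to 1.01, FDR = 7.51e-09, edgeR quasi-likelihood test), a fold of 1.82, and the fits without a library gave 0.82 to 0.90. Csf3r is abundant in neutrophils. The 12 markers of neutrophils and their precursors summed to 0.999 and 1.69 CPM with DMSO and to 1.28 and 1.54 CPM with GSI, overlapping between the groups. Of them, Elane, Prtn3 and Retnlg had 0 counts throughout and Ly6g at most 1. The highest was S100a8, with 11 and 33 counts in the DMSO libraries and 31 in each GSI library, followed by S100a9, with 9 and 31 against 14 and 24. S100a8, S100a9 and Mmp8, the 3 that could be tested, did not pass the FDR threshold. The part of these markers in the Csf3r result was not tested.

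Both chains of the GM-CSF receptor, Csf2ra and Csf2rb, and the IL-3 beta chain Csf2rb2 did not pass the test. Csf2ra, the alpha chain (chromosome 19, from 61223957 to 61228429, minus strand), stood at 173 and 215 CPM with DMSO and at 209 and 198 CPM with GSI. DMSO replicate 1 lay below the other 3 libraries, and the log2 fold change was 0.07 (SE 0.0853, 95% interval -0.11 to 0.25, FDR = 0.547, edgeR). Csf2rb, the common beta chain (chromosome 15, from 78325752 to 78353847, plus strand), stood at 450 and 487 CPM with DMSO and at 451 and 498 CPM with GSI, a log2 fold change of 0.02 (95% interval -0.14 to 0.18, FDR = 0.868, edgeR). Csf2rb2, the IL-3 beta chain (chromosome 15, from 78282507 to 78305721, minus strand), stood at 570 and 635 CPM with DMSO and at 537 and 610 CPM with GSI, a log2 fold change of -0.07 (95% interval -0.24 to 0.10, FDR = 0.506, edgeR). The libraries of the groups overlapped in all 3 genes. The signs of the Csf2ra, Csf2rb, Csf2rb2 and Csf1 values changed with the library left out.

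Csf2rb and Csf2rb2 are close copies, so a stretch in which their coding sequences differ is shown as an example of what separates their reads. It is the 90 bases with the most mismatches among aligned stretches without gaps, and stretches with gaps were left out. Their coding sequences, of 2691 and 2637 bases were 95.2% identical over the aligned bases without gaps, with 126 mismatches and an identical run of 242 bases. The 90 bases shown (5′ to 3′ along the mRNA, GRCm38) are coding bases 308 to 397 of Csf2rb (chr15:78338897-78338986, plus strand) and 311 to 400 of Csf2rb2 (chr15:78294345-78294434, minus strand), with capitals at the 16 mismatches.
Csf2rb: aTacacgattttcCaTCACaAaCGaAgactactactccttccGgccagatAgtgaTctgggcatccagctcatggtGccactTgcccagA
Csf2rb2: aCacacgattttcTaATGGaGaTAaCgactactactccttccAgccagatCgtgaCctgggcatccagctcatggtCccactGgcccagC
Of all stretches of 75 bases in the annotated transcripts, 7.15% of those of Csf2rb and 10.6% of those of Csf2rb2 were present in the other gene, and 12.3% and 18.4% of those of 50 bases. Reads from these stretches cannot be assigned by sequence, so the counts of each gene are uncertain to that extent. No other pair of members shared such a stretch.

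Ratios within a library do not depend on library size. The ratio of Csf1r to Csf3r counts was 36.1 and 38.2 in the DMSO libraries, against 12.9 and 14.9 in the GSI libraries, the widest separation of the ratios examined. Because Csf1r had been called lower and Csf3r higher, this ratio restates those results. Csf1r to Csf2rb was 4.87 and 4.91 with DMSO, against 3.12 and 3.43 with GSI. Csf1r to Csf1 was 57.2 and 67.2 with the vehicle, against 38.0 and 52.6 with the inhibitor, again without overlap. For the GM-CSF receptor, the ratio of beta to alpha chain counts, Csf2rb to Csf2ra, was 2.60 and 2.27 in DMSO libraries, against 2.16 and 2.52 in GSI libraries, and the groups overlapped. Csf2rb2 to Csf2rb was 1.27 and 1.30 with the vehicle, against 1.19 and 1.23 with the inhibitor, a small separation. With 2 libraries against 2, these ratios were not tested.

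**Figure D3:**
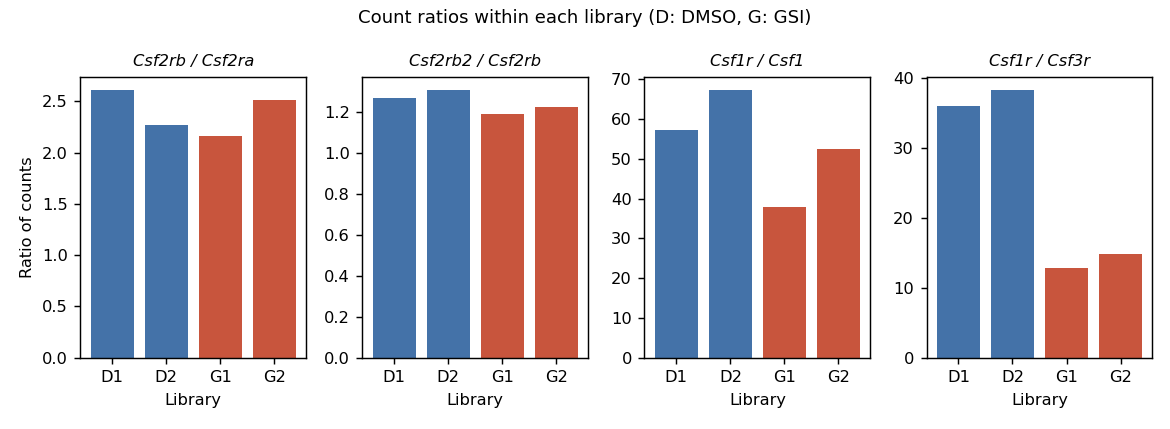
Ratio of the counts of 2 genes in each library (D1 and D2, DMSO replicates; G1 and G2, GSI replicates), with axes starting at 0. Csf1r over Csf3r is 36.1 and 38.2 for D1 and D2, against 12.9 and 14.9 for G1 and G2, while Csf2rb over Csf2ra overlaps between the groups.

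The other ligands and receptors of these families were mostly absent. Il34, the second ligand of CSF1R, had 1 count in all, Il3 had 0 counts, and Il5, Il5ra and Flt3 had at most 2 counts in any library. Il3ra, the alpha chain of the IL-3 receptor, was the only gene of the common beta chain family outside the members that could be tested. It rose from 43.7 to 64.3 CPM, a log2 fold change of 0.55 (SE 0.0856, FDR = 2.82e-05, edgeR), in contrast to Csf2ra at 0.07. Among relatives of CSF1R, Kit had 21 and 35 counts in the DMSO libraries, against 54 and 43 with the inhibitor. Its log2 fold change was 0.83 (SE 0.280, FDR = 0.0233, edgeR). That call was lost with DESeq2 (adjusted p = 0.199) and without DMSO replicate 1 (FDR = 0.141) or GSI replicate 1 (FDR = 0.172). Flt3l, the ligand of FLT3, had a log2 fold change of 0.39 (FDR = 0.00554, edgeR; 0.0520 without DMSO replicate 1), and Kitl, the ligand of KIT, of 0.15 (FDR = 0.111, edgeR).

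Genes that act around the receptors were followed in 8 lists, in which 96 of 105 genes could be tested. Of these, 43 were lower and 13 higher at an FDR under 0.05, beside the 21.9% and 19.0% of all genes tested. The list medians are given beside the median of all genes tested, 0.015, and nothing particular to a list is read from them. The 3 tested genes among the relatives of CSF1R and their ligands (Kit, Kitl and Flt3l) had a median of 0.39, and the single tested gene of the common beta chain family stood at 0.55. In receptor shedding and cleavage, 2 genes were lower and 2 higher of 10, with a median of -0.064. Adam10, a sheddase, fell (log2 fold change -0.66), Psen2 and Aph1c, subunits of gamma-secretase, rose (0.43 and 0.44), and Adam17, which sheds CSF1R, had a value of -0.07 (FDR = 0.455, edgeR).

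Of 26 genes of proximal CSF1R signaling, 12 were lower and 3 higher, with a median of -0.17. Dok2, an adaptor that restrains kinase signaling, had the largest decrease (-0.89), followed by the kinase Lyn at -0.57. Inpp5d (SHIP1, a lipid phosphatase) had -0.55 and Plcg2 had -0.46. Src rose most, by 0.88 on the log2 scale (SE 0.0906, FDR = 1.50e-07, edgeR), followed by Dok1, a relative of Dok2, at 0.38 (FDR = 0.000245, edgeR), and Grb2, the adaptor that links the receptor to RAS, at 0.28. Tyrobp (DAP12), an adaptor of immune receptors, did not pass the threshold, with a value of -0.13 (FDR = 0.163, edgeR).

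The JAK2-STAT5 route downstream of GM-CSF had 11 genes lower and 1 higher of 15, with a median of -0.24. Stat5a fell from 39.8 to 21.0 CPM (log2 fold change -0.92) and Jak2 from 282 to 196 CPM (-0.52). Of the genes known as STAT5 targets, Cish fell from 45.4 to 21.9 CPM (-1.05), Osm from 77.9 to 36.9 CPM (-1.08) and Ccnd2 from 89.6 to 57.0 CPM (-0.65). Myc had the largest change of the list at -1.37 (SE 0.0824, FDR = 1.09e-10, edgeR). Pim1 and Socs3, abundant at 1191 and 1600.5 CPM with DMSO, had values of -0.05 and -0.01 and did not pass, and Socs1 rose by 0.46. The decreases in this list stood beside receptor chain levels that did not pass the test.

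Transcription factors known to act on Csf1r were lower in 7 and higher in 1 of 14 tested, with a median of -0.22. Spi1 (PU.1) stood at 367 CPM with DMSO and 366 CPM with GSI, a log2 fold change of -0.0057 (95% interval -0.15 to 0.14), while Ets1 (-1.42), Fli1 (-0.54), Cebpa (-0.52) and Runx1 (-0.38) fell and Egr1 rose by 0.64. Of the factors known to act on Csf2 and Csf3, 8 were lower and 3 higher of 17, with a median of -0.19. Fosb fell from 140 to 30.1 CPM (-2.21), the only one past both thresholds, followed by Fosl2 at -1.46 and Rel, an NF-κB subunit, at -0.72. Nfkb1 (-0.44) and Nfatc2 (-0.58) were also lower, whereas Rela at -0.011 did not pass (FDR = 0.911, edgeR). The 3 that rose were Cebpd by 0.47, Jund by 0.27 and Relb, another NF-κB subunit, by 0.21, with FDRs of 0.0122, 0.0181 and 0.0335 by edgeR. Proteins that bind mRNAs and regulate their decay, through AU-rich elements such as that of Csf2 mRNA or through stem-loops, were lower in 3 and higher in 0 of 10, with a median of -0.11. The 3 were Zfp36l1, from 234 to 85.2 CPM (-1.46), Zc3h12a (Regnase-1, which binds stem-loops; -0.43) and Zfp36l2 (-0.18), whose FDR of 0.0481 by edgeR was lost in 5 alternatives. Zfp36 (tristetraprolin), at 5397 CPM with DMSO, had a value of -0.07 and did not pass.

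**Figure D4:**
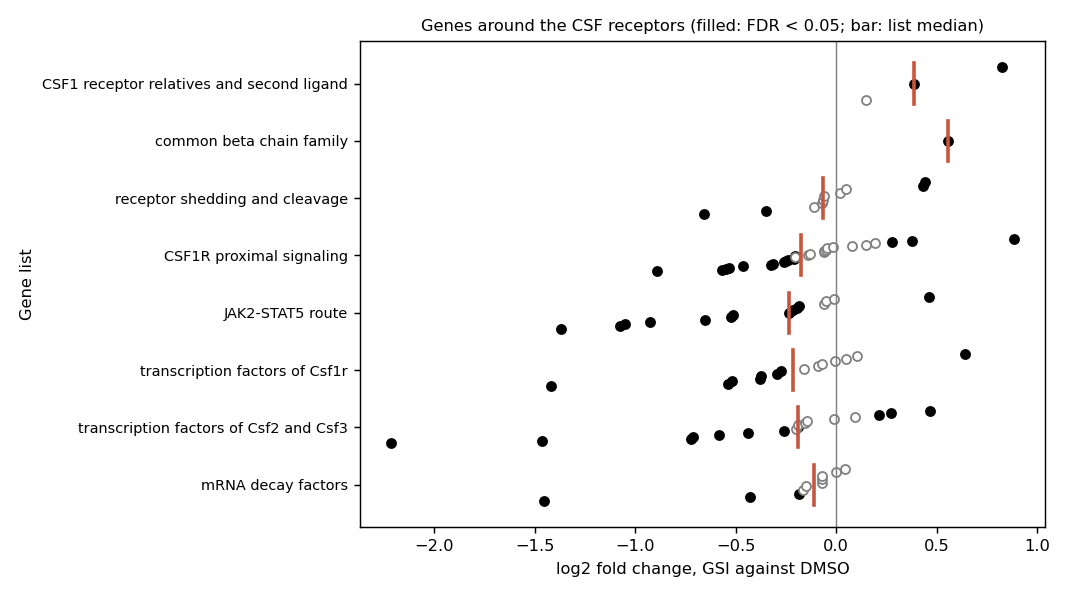
Log2 fold change of GSI against DMSO for the tested genes of the 8 lists (filled, FDR under 0.05) with the median of each list as a red bar. Fosb at -2.21, Fosl2 at -1.46, Zfp36l1 at -1.46 and Myc at -1.37 lie to the left, and Src at 0.88 and Kit at 0.83 lie to the right.

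For each member called, the 3 genes with the most similar pattern over the 4 libraries were taken, by Euclidean distance between centred log2 CPM values, among genes averaging at least 1 CPM. For Csf2 these were Plat, Esco2 and Id1, at distances of 0.380, 0.385 and 0.421. For Csf1r they were Plag1, Tm6sf1 and Sigirr, at 0.0499, 0.0528 and 0.0539. For Csf3r they were Uchl1, Esd and Dusp28, at 0.0327, 0.0356 and 0.0473. For Csf3 they were Nhsl2, Fam64a and Atp7a, at 0.0614, 0.112 and 0.136, where the 0.1 CPM added before the logarithm sets much of the Csf3 values. With 4 libraries in 2 groups, the measure rests on the group difference and the spread within groups.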

How the data were processed

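The authors made stranded poly(A) libraries (TruSeq), sequenced them on an Illumina NextSeq, trimmed adapters with Trimmomatic, aligned reads with STAR (2.5.0a per the labels) and obtained gene counts from HTSeq. The methods name mm10, and the submitters' notes list mm9 and mm10. The deposited values are raw counts per gene and run, not normalized, and the HTSeq mode and strand setting are not given in the sources used here. The 4 columns of each replicate, taken as runs, differed by about the sampling noise (chi-square per degree of freedom of 1.01 to 1.03) and were summed to 1 library.

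Counts were tested with edgeR 4.0.16 in R 4.3.3 (filterByExpr, TMM, glmQLFit and glmQLFTest, group as the only factor) over 13211 genes. The SE is the absolute log2 fold change divided by the square root of F, and intervals used 19.8 degrees of freedom. Alternatives were DESeq2 1.42.0, other scalings and filters, the likelihood ratio test, a replicate block, 16 runs as samples and leaving out each library. The fits were tested on simulated data. Lengths and positions came from GENCODE M21 (GRCm38), promoter sequences from RefSeq (GRCm38.p6), and alignments from Biopython 1.88. Members and lists were chosen with earlier results of these data known. Named were all members, up to 3 called genes of the largest change per list, family partners and the nearest patterns, and further list genes and markers named were chosen after their values were seen. Protein sequences were not used here.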

Additional observations from a re-analysis of the deposited data

How the results depend on the processing

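The calls of Csf2, Csf1r and Csf3r held in all 12 alternative fits of each, with log2 fold changes of -2.65 to -1.65, -0.70 to -0.42 and 0.82 to 0.90. Csf3, whose test the filter on low counts decides in part, ranged from -3.29 without GSI replicate 1 to -2.35 without GSI replicate 2, where its call was lost. It was left untested, or without an adjusted p, by DESeq2, by at least 10 counts in every library, by 16 runs as separate samples and without DMSO replicate 2, in each of which the number of members past both thresholds was 1 in place of 2, the other fits that left out a library giving 1 to 2. Leaving out 1 library leaves 1 residual degree of freedom, and the lone library is assumed to vary like the other group. The uncalled members changed sign near 0 in such fits: Csf1 ranged from -0.19 to 0.0062, Csf2ra from -0.080 to 0.23, Csf2rb from -0.053 to 0.088 (-0.039 without DMSO replicate 1) and Csf2rb2 from -0.17 to 0.017 (0.0057 without DMSO replicate 2). With the replicate block, Csf2 was at -2.10 and Csf1r at -0.56, and no call of a member changed. Replicates with the same number deviated together only weakly (r = 0.17 across genes, 2 pairs), and the labels do not say that numbers pair the samples. Over all genes, 385 passed both thresholds, against 154 with at least 10 counts in every library and 178 with 16 runs as separate samples, 556 with no filter and 399 to 436 without a library; the runs called 3896 genes higher in place of 2504, whereas DESeq2 called 1703 and the fit without DMSO replicate 1 called 1820. Csf3, and less so Csf2, rest on few counts, which limits their precision.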
